A study of Homo sapiens with 10 samples.

Results

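FOS-JUN sites are the FOS peaks of transformed ER-Src cells that had a JUN summit nearby and no summit of JUNB, STAT3 or NFKB1. The members were chosen by the peak positions of the 5 lists of transformed cells: a FOS peak on chromosomes 1 to 22 or X was taken when a JUN summit lay within 300 bp of its own summit and no JUNB, STAT3 or NFKB1 summit did. This gave 11727 sites, 7.12% of the 164605 FOS peaks of transformed cells. ER-Src cells are MCF-10A cells, an immortal non-cancerous breast epithelial line, that carry the Src oncoprotein fused to the hormone-binding part of the estrogen receptor. Every library used here comes from this 1 engineered line. Transformed cells had received 1 μM 4-hydroxy-tamoxifen, which activates the fusion protein, and were taken at 12 h. Non-transformed cells carry ethanol in their sample titles and are called ethanol cells where that is shorter. Library names hold 36 h for ethanol and 12 h for tamoxifen libraries, so state and these hours cannot be told apart. Each of the 5 proteins has 1 library in each state, so no difference below has a replicate check or a test, and each interval describes only the sampling of sites within a list.

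AP-1 is a dimer of basic leucine zipper proteins. JUN and JUNB can pair with themselves, with each other or with FOS, whereas FOS needs a JUN family partner to bind DNA. JUN is a strong activator in many settings, JUNB is often the weaker activator or a brake on JUN, and STAT3 and NFKB1 (the p50 subunit of NF-κB) are the inflammatory factors that frequently share enhancers with AP-1. FOS-JUN sites are thus places where both proteins of a possible FOS-JUN dimer were listed and none of the other 3 was, although separate libraries cannot show that the proteins sat on the same molecule of DNA.

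The lists were made from libraries of unequal depth. After the authors' filter, FOS of transformed cells had 22082403 reads, JUN 18454386, JUNB 15750765, NFKB1 9674390 and STAT3 8967267. The pair of libraries used to exclude inflammatory factors were thus the shallowest of that state, and a missing summit means only that no peak passed the caller's threshold. Peaks were called with no control library, and the part of signal that all antibodies share was not tested. In non-transformed cells the libraries held 18619521 (FOS), 15852999 (JUN), 9178601 (JUNB), 10929003 (STAT3) and 4837474 (NFKB1) reads.

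JUN was present at 99344 FOS peaks (60.4%). Of these, 23119 (23.3%) had no JUNB summit, and the 11727 FOS-JUN sites are the 50.7% of those that also lacked STAT3 and NFKB1. The other AP-1 combinations without STAT3 and NFKB1 were 41116 peaks of FOS alone, 19385 with both JUN and JUNB, and 9983 with JUNB but no JUN. Of the 16 combinations, 4 were more frequent than FOS-JUN sites, among them the 36504 peaks with all 5 proteins. The sites used 11542 different JUN peaks, 9.06% of the JUN list, so few shared a JUN peak, and 452 sites (3.85%) had another FOS summit within 300 bp.

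**Figure D1:**
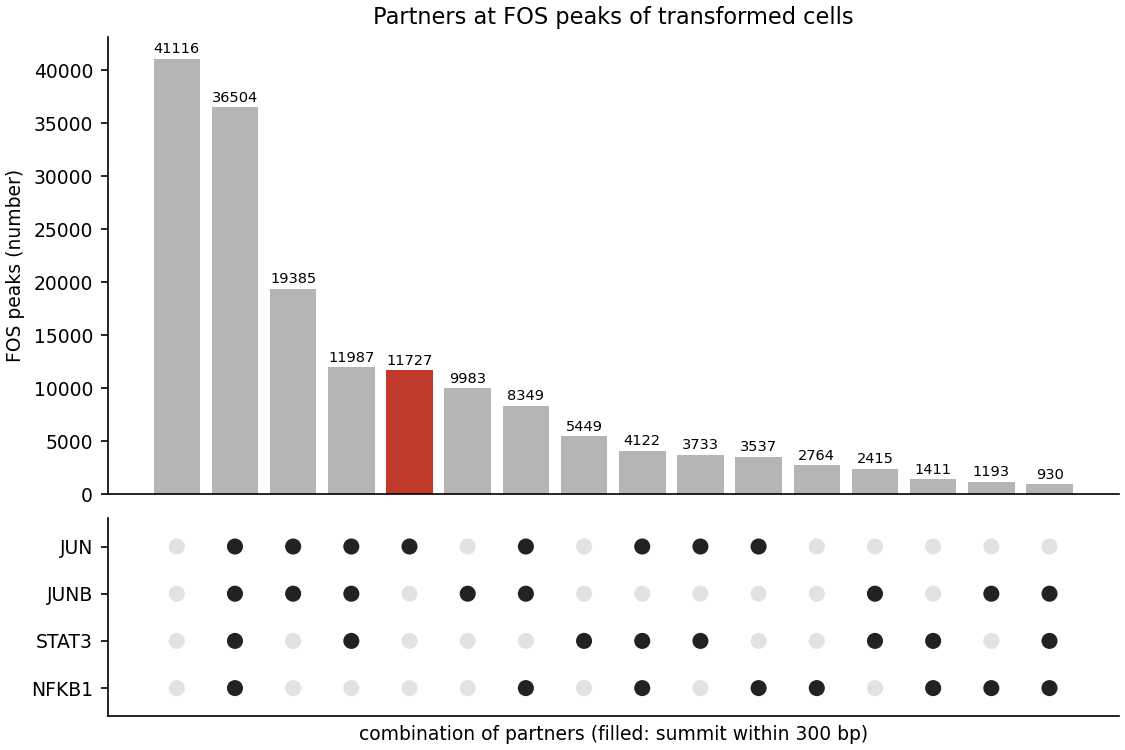
Number of FOS peaks of transformed cells (vertical axis) for each of the 16 combinations of JUN, JUNB, STAT3 and NFKB1 summits within 300 bp, with filled dots for the proteins present. The FOS-JUN sites, in red, number 11727, between the 11987 peaks with JUN, JUNB and STAT3 and the 9983 with JUNB only.

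The sites were weak FOS peaks. Their median fold enrichment over the local background was 5.84 (quartiles 4.72 and 7.76), against 8.28 over all FOS peaks, 10.97 where JUN and JUNB and no other protein were present, 7.24 with JUNB only and 5.17 for FOS alone. The median pileup, which counts the extended reads that cover a summit, was 11 at FOS-JUN sites and 16 over all FOS peaks, and the median peak lengths were 158 and 200 bp. JUN was weak as well: its median fold enrichment was 5.49 at these sites, against 6.74 at sites with JUN and JUNB only and 7.18 over the whole JUN list. These values belong to the lists that chose the sites and are given as a description.

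The ratio of JUN to FOS was nonetheless higher than in the comparison sets, although JUN itself was weaker. The ratio of JUN to FOS fold enrichment had a median of 0.955 (quartiles 0.710 and 1.25) at FOS-JUN sites, 0.637 at sites with JUN and JUNB only, and 0.689 over all FOS peaks with JUN. JUN had the larger fold enrichment at 5197 FOS-JUN sites (44.3%), against 14.01% of the sites with JUN and JUNB only and 20.8% of all FOS peaks with JUN. At the median FOS-JUN site the pair of proteins thus had nearly equal fold enrichment. These values too belong to the lists that chose the sites, and to libraries of unequal depth. A JUN peak must pass the caller's threshold however weak FOS is, and the part of this in the ratio was not tested.

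When all FOS peaks were ordered by fold enrichment and cut into 10 equal parts, FOS-JUN sites took 10.6% of the weakest, 12.0% of the third and 8.84% of the sixth. In the eighth they took 1.34%, and the strongest part, above a fold enrichment of 25.3, held 3 of them among 16461 peaks. Among FOS peaks with JUN, the share without any of the other proteins was 43.5% in the weakest part, 22.1% in the fifth and 1.45% in the eighth. Strong FOS peaks with JUN almost always had JUNB, STAT3 or NFKB1 listed too. The strength of a peak also sets how readily its neighbours pass a threshold, and the part of detection in this gradient was not tested.

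**Figure D2:**
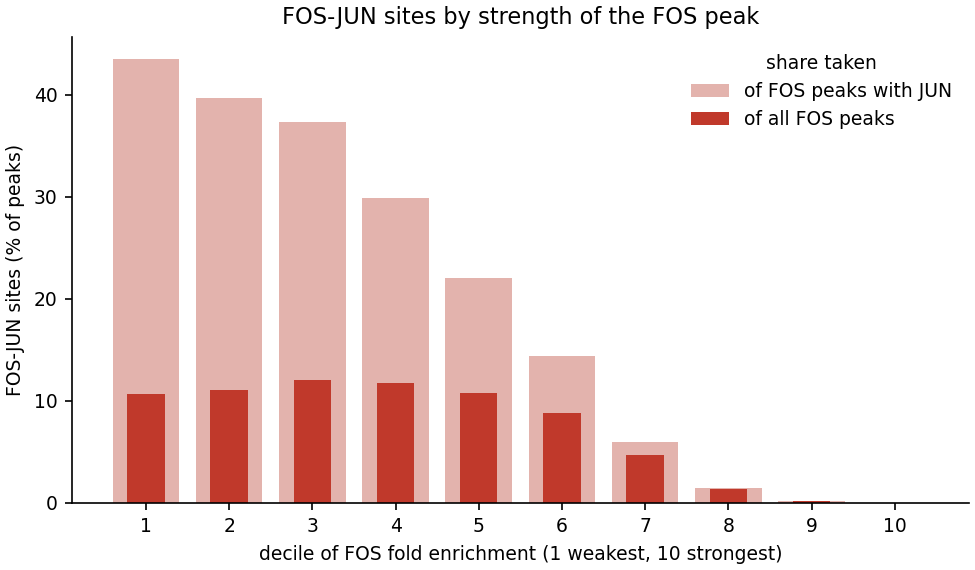
Share of peaks that are FOS-JUN sites (vertical axis, %) in each decile of FOS fold enrichment in transformed cells, from weakest (1) to strongest (10), over all FOS peaks (dark bars) and over FOS peaks with JUN (light bars). The light bars go from 43.5% in decile 1 to 1.45% in decile 8.

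The JUN summit lay close to the FOS summit. The median distance was 27 bp (order-statistic 95% interval 26 to 27 bp, 11727 sites), against 18 bp at the 19385 sites with JUN and JUNB only. Within 20 bp lay 40.8% of the JUN summits at FOS-JUN sites and 54.9% at the comparison sites, and within 100 bp 89.3% and 96.0%. The bins of 20 bp to the left and right of the FOS summit held 19.9 and 20.1% of the JUN summits at FOS-JUN sites. A further 492 FOS-JUN sites (4.20%) had the JUN summit more than 200 bp away. The widely spaced sites were weaker for FOS: the median fold enrichment was 6.21 at distances up to 20 bp, 5.38 at 51 to 100 bp and 4.66 beyond 200 bp.

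**Figure D3:**
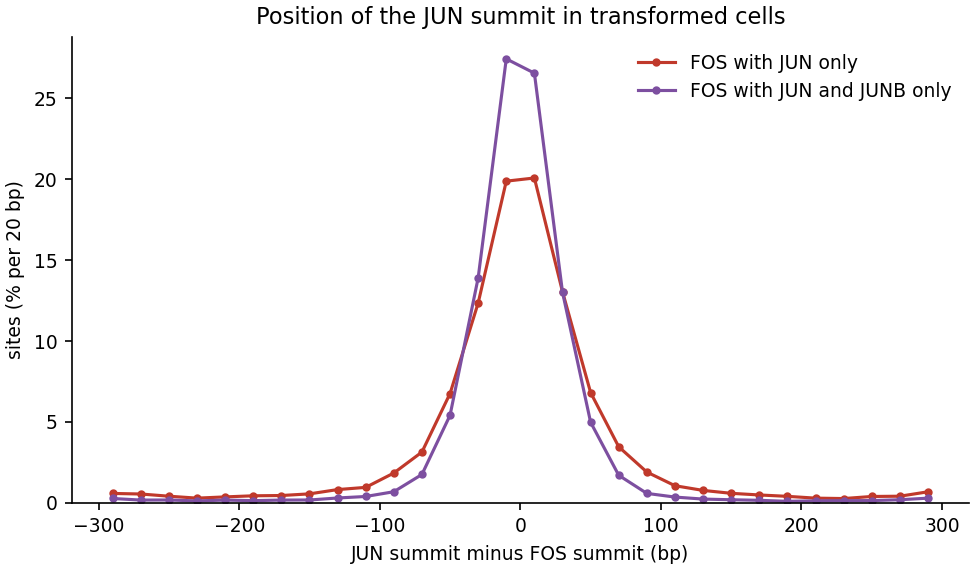
Offset of the JUN summit from the FOS summit in transformed cells (horizontal axis, bp) and the share of sites in each 20 bp bin (vertical axis, %). Both classes centre on 0, with 40.8% of FOS-JUN sites (red) and 54.9% of sites with JUN and JUNB only (purple) within 20 bp.

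FOS was weak on both sides of the 300 bp limit. The 73 members whose JUN summit was in the last 10 bp inside it had a median FOS fold enrichment of 4.66, and the 92 FOS peaks that missed the rule because JUN lay up to 10 bp outside it had 4.57. The nearest JUN peak had a median fold enrichment of 6.04 in the first set and 7.69 in the second, the latter above the 7.18 of the whole JUN list. For the excluded proteins, 73 members had the nearest JUNB, STAT3 or NFKB1 summit up to 10 bp outside the limit and a median FOS fold enrichment of 5.61, whereas the 97 FOS peaks with JUN that were left out by a summit in the last 10 bp inside it had 4.75.

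Distances to the nearest JUNB, STAT3 and NFKB1 summits were taken for FOS-JUN sites only, so they have no comparison class. The rule bars these summits within 300 bp, which lowers the shares at short distances. The nearest JUNB summit was at a median of 6.77 kb, the nearest STAT3 summit at 9.27 kb and the nearest NFKB1 summit at 9.86 kb. Within 1 kb, 13.5% of the sites had a JUNB summit, 12.5% a STAT3 summit and 11.5% an NFKB1 summit. Within 10 kb these shares were 60.1, 51.8 and 50.4%. A FOS peak with all 4 other proteins lay within 10 kb of 32.5% of FOS-JUN sites, 27.7% of sites with JUNB only, 35.1% of FOS-only sites and 26.8% of sites with JUN and JUNB only, beside 35.5% of all FOS peaks without that full set. The median distance from a FOS-JUN site to the nearest other member was 59.1 kb, and 640 sites (5.46%) had another member within 1 kb. No other class was measured in this way. Around a FOS-JUN site the median number of other FOS peaks within 10 kb was 2, as over all FOS peaks.

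The lists of non-transformed cells took no part in the choice of sites and show which proteins were listed there in the other state. A FOS summit of non-transformed cells lay within 300 bp of 6015 FOS-JUN sites (51.3%, Wilson 95% interval 50.4 to 52.2%), below the 60.7% over all FOS peaks of transformed cells, whose pileups are higher, and near the 52.7% (51.7 to 53.7%) of sites with JUNB only. Sites with both JUN and JUNB had FOS in 84.2% of cases, and FOS-only sites in 24.0%. FOS was hence listed in ethanol cells at a bare majority of FOS-JUN sites.

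JUN was listed in non-transformed cells at 3325 FOS-JUN sites (28.4%, 27.5 to 29.2%). The share over all FOS peaks was 36.1%, so the FOS-JUN sites were below FOS peaks at large when pileup was not taken into account. They were above the classes that lacked JUN in transformed cells, where JUN of non-transformed cells was at 8.16% (7.64 to 8.72%) of sites with JUNB only and at 3.94% (3.76 to 4.13%) of FOS-only sites. Sites with JUN and JUNB only had 32.1% (31.5 to 32.8%).

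JUNB, the subunit whose absence in transformed cells is part of the rule, was listed in non-transformed cells at 2033 FOS-JUN sites (17.3%, 16.7 to 18.0%). This share was 37.6% over all FOS peaks, 27.0% (26.1 to 27.8%) at sites with JUNB only, 56.9% at sites with JUN and JUNB only, and 7.71% at FOS-only sites. Over all pileups, FOS-JUN sites thus had less JUNB in ethanol cells than sites with JUNB only, but not at every pileup.

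STAT3 and NFKB1 were uncommon in ethanol. The rule bars both proteins in transformed cells. STAT3 was listed at 820 FOS-JUN sites (6.99%, 6.54 to 7.47%), against 19.8% of all FOS peaks, 2.05% of sites with JUNB only, 1.38% of FOS-only sites and 5.98% of sites with JUN and JUNB only. At 5 to 9 FOS reads in transformed cells the STAT3 share was 8.03%, against 7.81% of all FOS peaks. At 10 to 14 reads it was 7.99 against 10.6%. At 15 to 19, 20 to 29 and 30 or more reads it was 4.40, 3.42 and 8.49%, against 13.0, 17.7 and 42.5%. NFKB1 was at 100 sites (0.853%, 0.702 to 1.04%), with 6.83% over all FOS peaks, and its ethanol library is the shallowest of the series. The STAT3 summits lay farther off, at a median of 53 bp from the FOS summit, than the JUNB summits, at 26 bp. This order is not particular to FOS-JUN sites, since over all FOS peaks the medians were 37 and 18 bp.

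**Figure D4:**
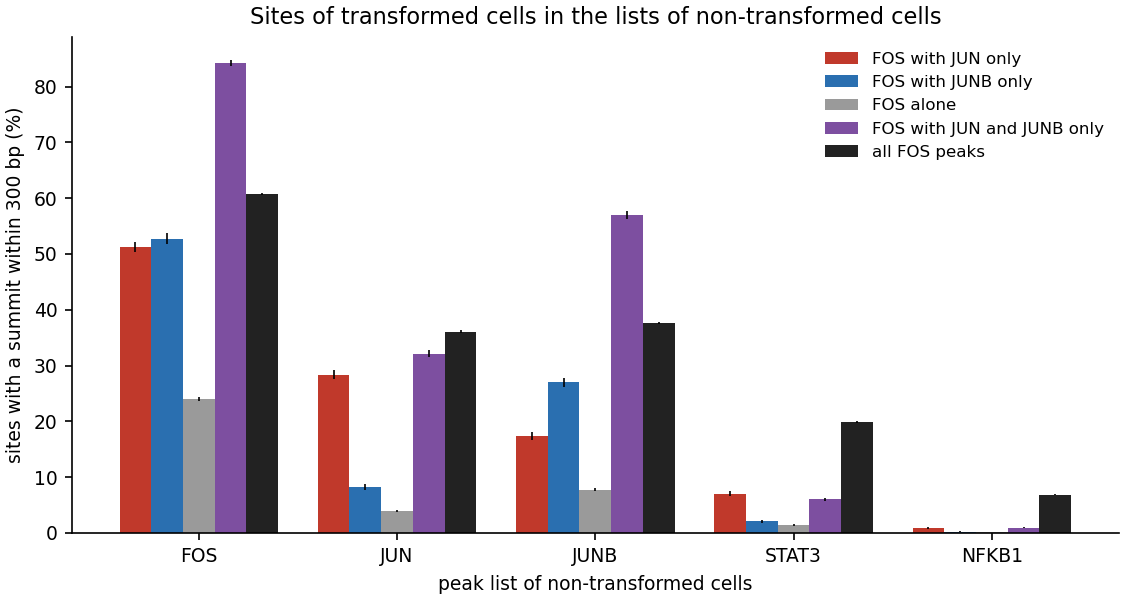
Share of sites of transformed cells (vertical axis, %) with a summit within 300 bp in each of the 5 lists of non-transformed cells, for FOS-JUN sites (FOS with JUN only, red), the other AP-1 classes and all FOS peaks. Error bars are Wilson 95% intervals over sites. For JUN the red bar, 28.4%, is near the 32.1% of sites with JUN and JUNB only and far above the 8.16% of sites with JUNB only.

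Counted together, 3731 FOS-JUN sites (31.8%, 31.0 to 32.7%) had no summit of any protein in non-transformed cells, where the share over all FOS peaks was 31.9%. This share was 40.9% at sites with JUNB only, 70.7% at FOS-only sites and 11.8% at sites with JUN and JUNB only. At 4627 sites (39.5%) 1 protein was listed, at 2547 (21.7%) 2 were, and at 10 sites all 5 were. The most frequent AP-1 makeup in ethanol, after none, was FOS without JUN or JUNB (3208 sites, 27.4%). Its share was 17.6% over all FOS peaks, 27.7% at sites with JUNB only and 23.8% at sites with JUN and JUNB only. JUN without FOS or JUNB came next (1428 sites, 12.2%), a makeup that 3.601% of all FOS peaks, 1.47% of sites with JUNB only and 1.35% of sites with JUN and JUNB only had. FOS and JUN without JUNB were listed at 1211 sites (10.3%), FOS and JUNB without JUN at 1094 (9.33%), and all 3 AP-1 proteins at 502 (4.28%). Over all FOS peaks these makeups had 7.90, 11.3 and 24.0%, respectively.

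Within the class, the protein listed in ethanol went with the balance of JUN and FOS in transformed cells. The 1612 members with JUN but no FOS in ethanol had a median fold enrichment in transformed cells of 6.59 for JUN and 5.08 for FOS. The 4302 members with FOS but no JUN in ethanol had 5.49 for JUN and 6.84 for FOS. The 3731 members with nothing in ethanol had 5.29 for JUN, the lowest of the 3 sets, and 5.54 for FOS, between the other two. Cut the other way, the 5197 sites at which JUN had the larger fold enrichment in transformed cells had JUN in ethanol in 42.9% of cases (41.5 to 44.2%), FOS in 40.5%, JUNB in 12.8% and STAT3 in 10.4%. At the remaining 6530 sites the shares were 16.8% (15.9 to 17.7%) for JUN, 59.8% for FOS, 20.98% for JUNB and 4.24% for STAT3. The cut was made after these lists had been seen. Neither split was made for other FOS peaks with JUN, so the pattern may not be particular to FOS-JUN sites. The part of signal strength in it was not tested.

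Because FOS-JUN sites are weak and a stronger site is more readily listed in ethanol, the shares were also compared at equal FOS pileup in transformed cells. FOS of non-transformed cells was at 34.0% of the 3897 FOS-JUN sites with 5 to 9 reads, 51.8% of the 4681 with 10 to 14, 68.3% of the 2021 with 15 to 19, 77.7% of the 1022 with 20 to 29 and 87.7% of the 106 with 30 or more. Over all FOS peaks the FOS shares in these bands were 24.5, 42.8, 63.0, 78.98 and 95.1%, so FOS-JUN sites were above them below 20 reads and not from 20 reads upwards. Sites with JUNB only had 39.7, 49.5, 58.4, 62.2 and 68.0%, above FOS-JUN sites in the lowest band and below them in the others, with overlapping intervals at 10 to 14 reads. JUNB in ethanol cells likewise went up with pileup at FOS-JUN sites, with 10.1, 16.0, 24.7, 32.9 and 52.8%. JUN did not: its shares were 33.8% (32.3 to 35.3%), 29.2%, 20.2%, 20.5% and 20.8% (14.1 to 29.4%). The FOS-JUN sites with the fewest FOS reads were those with the largest share of JUN in ethanol. Over all FOS peaks the JUN share went the other way, with 15.2, 19.4, 24.1, 35.6 and 74.2%. FOS-JUN sites were therefore above all FOS peaks below 15 reads and below them from 15 reads upwards.

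In each band FOS-JUN sites had a larger share with JUN in ethanol than sites with JUNB only (8.17, 7.53, 7.69, 8.67 and 16.8%). In the highest band, with 106 and 297 sites, the intervals of the shares overlapped. Against sites with JUN and JUNB only, FOS-JUN sites had the larger share with JUN below 15 reads (33.8 and 29.2%, against 28.6 and 22.7%) and the smaller one from 15 reads upwards, where the comparison sites had 23.7, 29.97 and 48.3%. For JUNB in ethanol, sites with JUNB only had 17.8, 24.7, 29.9, 34.3 and 42.1%. They were above FOS-JUN sites below 20 reads, the intervals overlapped at 20 to 29 reads, and in the highest band FOS-JUN sites had the larger value, also with overlapping intervals. The sites with JUN and JUNB only were above FOS-JUN sites in every band, from 33.1% in the lowest to 77.8% in the highest.

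**Figure D5:**
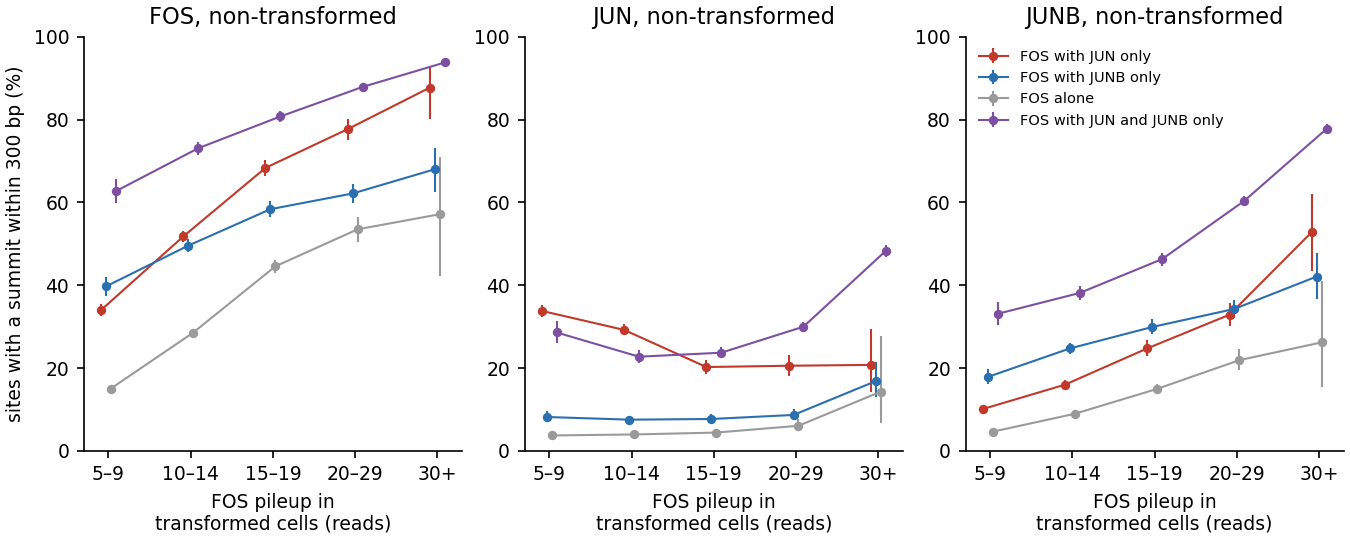
Share of sites with a FOS (left), JUN (middle) or JUNB (right) summit of non-transformed cells within 300 bp (vertical axes, %) by FOS pileup in transformed cells (horizontal axes, reads), with Wilson 95% intervals over sites. For FOS-JUN sites (red) the FOS share goes from 34.0 to 87.7% and the JUNB share from 10.1 to 52.8%, whereas the JUN share goes from 33.8 to 20.8%.

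Where a protein was listed in both states, its signal can be set side by side per 1000000 filtered reads. At the 6015 FOS-JUN sites with FOS in both, the median pileup was 0.589 per 1000000 in transformed and 0.644 in non-transformed cells. The median ratio of transformed to non-transformed was 0.843 (quartiles 0.656 and 1.15), the value that equal raw pileups give in these 2 libraries, and 2176 sites (36.2%) were higher in transformed cells. Over all FOS peaks listed in both states the median ratio was 0.937. FOS-only sites had the same 0.843 as FOS-JUN sites, sites with JUNB only 0.913 and sites with JUN and JUNB only 0.899. By fold enrichment, FOS at FOS-JUN sites had medians of 6.73 in transformed and 6.85 in non-transformed cells. The median ratio of FOS folds was 0.946, as at FOS-only sites, against 1.03 over all FOS peaks. At the 3325 FOS-JUN sites with JUN in both, the median pileup was 0.650 per 1000000 in transformed and 0.631 in non-transformed cells, with a median ratio of 1.02 (order-statistic 95% interval 1.00 to 1.03). JUN had a median ratio of 1.26 at the 6230 sites with JUN and JUNB only and 1.36 over the 55280 FOS peaks of transformed cells with JUN in both states. By pileup, JUN at FOS-JUN sites was thus at about equal level in the 2 libraries, where FOS peaks at large had more in the transformed library. By fold enrichment, JUN at FOS-JUN sites had medians of 6.59 in transformed and 5.85 in non-transformed cells. The median ratio of folds was 1.12, against 1.37 at sites with JUN and JUNB only and 1.47 over all FOS peaks. How far the list thresholds hold the ratios of weak sites near 1 was not tested.

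At the 2033 FOS-JUN sites with JUNB in ethanol, JUNB was a modest peak there, with a median fold enrichment of 5.64 and a median pileup of 0.763 per 1000000. JUNB in ethanol had 0.872 per 1000000 at sites with JUNB only and 1.09 at sites with JUN and JUNB only. The JUNB library of transformed cells is the deeper of the pair, and 95% of its listed peaks have at least 0.444 reads per 1000000. The lowest values of the ethanol list are near that level already, so the 2019 of the 2033 sites (99.3%) above it are no trait of these sites, and over all FOS peaks with JUNB in ethanol 99.8% were. The ethanol pileup was above the median of the transformed list, 0.952, at 692 sites (34.0%), against 69.0% over all FOS peaks with JUNB in ethanol. Of the 2033 sites, 31 (1.52%) had a FOS interval that overlapped a JUNB interval of transformed cells although the summits were over 300 bp apart, and 297 (14.6%) had a JUNB summit of transformed cells within 1 kb, against 13.3% of the FOS-JUN sites without JUNB in ethanol. Whether JUNB was lower at these sites or its peak was missed in the second library was not tested. The names of the 2 JUNB libraries also differ in hours and replicate letter, which cannot be told apart from the state.

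Few sites met the rule in both states. The same rule applied to the 5 lists of non-transformed cells gave 8736 FOS peaks, 7.29% of the FOS list there. A FOS-JUN site of transformed cells lay within 300 bp of 984 of them (11.3%), against 5.02% of all FOS peaks of ethanol cells. Seen from transformed cells, 990 FOS-JUN sites (8.44%) had such a peak, against 4.35% of all FOS peaks. Of the 8736, 80.6% had FOS in transformed cells, where all FOS peaks of ethanol cells had 83%, and a FOS summit was missing at 1692 (19.4%, against 17%). JUN was listed in transformed cells at 81.1% of them, against 71.7% of all. The excluded proteins were listed there as well: JUNB at 49.7% (65.1% of all), STAT3 at 39.3% (45.2% of all) and NFKB1 at 41.9% (also 41.9% of all). All 5 proteins were listed at 1454 (16.6%, against 28.7% of all). Each of the 5 lists is longer in transformed cells than in ethanol cells.

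FOS-JUN sites lay on every chromosome examined, and their share of the FOS peaks went from 6.20% on chromosomes 8 (Wilson 95% interval 5.72 to 6.73%) and 21 (5.24 to 7.33%) to 10.1% (9.02 to 11.4%) on chromosome 19. Chromosomes 17 (8.61%, 7.87 to 9.41%) and 22 (8.04%, 6.90 to 9.36%) came next, beside 7.12% overall. On chromosome 19, JUNB accompanied 57.9% of the FOS peaks with JUN, whereas on the other chromosomes it did so at 68.4 to 79.8%. FOS-JUN sites of chromosome 19 also had the largest share with JUN in ethanol, 44.2% of 260 sites, against 18.1% of 348 sites on chromosome X. Over all FOS peaks, JUN of transformed cells was likewise listed most often on chromosome 19 (66.2%) and least often on X (54.2%). The share with JUN in ethanol was not taken over all FOS peaks by chromosome, so the contrast may not be particular to FOS-JUN sites. FOS-JUN sites of these 2 chromosomes differed little in the share with FOS in ethanol, 55.0 and 54.3%.

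The 10 strongest sites, by the sum of their ranks for FOS and JUN fold enrichment, show how varied the class is at its upper end. Positions are those of the lists, which use hg19 according to the submitters' processing notes. Reads at named sites are raw pileups. The FOS, JUN and JUNB libraries of transformed cells are deeper than those of ethanol cells, so raw reads of both states are not on one scale. Site 1 lies on chromosome 1 from 179111959 to 179112796. In transformed cells its pileup was 83 reads in the FOS and 62 in the JUN library, and in ethanol cells FOS had 89 reads, JUN 32, JUNB 40 and NFKB1 7. Its STAT3, JUNB and NFKB1 summits of transformed cells were at 311, 337 and 349 bp, just beyond the limit, so that this broad site of 838 bp is a FOS-JUN site by a narrow margin.

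Site 2, on chromosome 3 from 45859295 to 45860077, is of the same kind. FOS had 64 reads in transformed cells and 89 in ethanol cells. JUN had 37 reads at 296 bp in transformed cells, with JUNB at 311 bp and NFKB1 at 328 bp. In ethanol cells JUNB had 22 reads at 292 bp from the FOS summit, and STAT3 had 14 reads at 39 bp. Site 6, on chromosome 12 from 60660091 to 60660291, had 44 FOS reads in transformed cells and 18 in ethanol cells, and 25 JUN reads in transformed cells and 8 JUNB reads in ethanol cells, with NFKB1 at 332 bp and JUNB at 335 bp. Site 9, on chromosome 1 from 41472678 to 41472846, had 26 FOS and 36 JUN reads in transformed cells and 23 and 19 in ethanol cells, with NFKB1 of transformed cells at 398 bp. Site 10, on chromosome 8, had 64 FOS and 24 JUN reads in transformed cells, 71 FOS, 12 JUN and 27 JUNB reads in ethanol cells, and STAT3 of transformed cells at 472 bp. At these 5 sites an excluded protein was listed within 500 bp.

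The other 5 were freestanding in transformed cells, with no JUNB, STAT3 or NFKB1 summit within 1 kb. Site 3, on chromosome 6 from 101987498 to 101987744, had 74 FOS reads in ethanol cells and 39 in transformed cells. JUN there had 10 and 27 reads, and JUNB had 34 reads in ethanol cells and its nearest summit of transformed cells 4766 bp away. Site 4, on chromosome 16 from 14657092 to 14657317, had 18 FOS and 6 NFKB1 reads in ethanol cells, where JUN was not listed, and 30 FOS and 28 JUN reads in transformed cells. Site 5, on chromosome 6 from 37621707 to 37622073, had similar raw FOS and JUN reads in both states. It had 37 FOS, 28 JUN and 9 JUNB reads in ethanol cells and 43 FOS and 26 JUN reads in transformed cells.

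Site 7, on chromosome 17 from 55601337 to 55601648, was led by JUN in both states, with 64 JUN and 17 FOS reads in ethanol cells and 46 JUN and 25 FOS reads in transformed cells. Site 8, on chromosome 6 from 157351274 to 157351487, had 24 JUN and 21 FOS reads in ethanol cells and 30 JUN and 26 FOS reads in transformed cells. Neither had a JUNB, STAT3 or NFKB1 summit within 1 kb in either state, so FOS and JUN alone were listed at both sites in both states.

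The 10 and the 100 strongest sites had an excluded protein within 500 bp more often than the class as a whole, but the 1000 strongest did not. A JUNB, STAT3 or NFKB1 summit lay within 500 bp of 5 of the 10 strongest, of 20 of the 100 strongest, of 8.10% of the 1000 strongest and of 8.19% of all members. Within 1 kb the shares were 24% of the 100 strongest, 18.1% of the 1000 strongest and 19.9% of all members. An excluded protein's interval overlapped the FOS interval at 12 of the 100 strongest and 1.10% of all. The FOS intervals were also longer at the 100 strongest, with a median of 225.5 bp against 158 bp. JUNB was listed in ethanol at 42 of the 100 strongest, JUN at 49 and FOS at 90. Over all FOS peaks with 20 to 29 FOS reads in transformed cells, the JUNB, JUN and FOS shares were 45.9, 35.6 and 78.98%. With 30 or more reads they were 81.8, 74.2 and 95.1%. The 100 strongest were not matched to these bands by pileup.

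Among the 3731 sites with nothing listed in ethanol, the strongest lies on chromosome 16 from 23084292 to 23084577. It had 22 FOS and 32 JUN reads in transformed cells, with summits 4 bp apart, and its nearest FOS summit of non-transformed cells was 521 bp away. The next was on chromosome 12 from 94898310 to 94898581, with 22 FOS and 21 JUN reads at 3 bp and the nearest FOS summit of non-transformed cells at 6476 bp. The one after, on chromosome 13 from 92838897 to 92839065, had 23 FOS and 17 JUN reads. The others were on chromosome 10 from 73435434 to 73435630, with 22 FOS and 17 JUN reads, and on chromosome 17 from 78421689 to 78421890, with 19 FOS and 21 JUN reads. In all 5 the FOS and JUN summits were 3 to 15 bp apart, and the nearest JUN summit of non-transformed cells was between 6724 and 37975 bp away. The strongest sites with JUNB in ethanol were already described: they are sites 1, 2, 3, 5 and 6, with 40, 22, 34, 9 and 8 JUNB reads.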

How the data were processed

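ChIP-seq peak lists of FOS, JUN, JUNB, STAT3 and NFKB1 in ER-Src cells were used, 1 list for each protein in each state, grouped by sample title. Per the file headers, the authors ran MACS 2.0.10.20131216 on every library by itself, with 36 bp tags, no control library, at most 1 tag at a position and 0.05 as the q-value cutoff. Bowtie and hg19 are named in the submitters' processing notes. The deposited pileup is a signal not scaled by depth, the deposited fold enrichment is the pileup as a ratio to the local background, and the deposited p-values and q-values are −log10 values as the authors' caller wrote them. Library names in the headers hold 36 h in ethanol libraries and 12 h in tamoxifen libraries, and different replicate letters for the JUNB pair and for the STAT3 pair.

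Summits were matched to the nearest summit of another list within 300 bp, on chromosomes 1 to 22 and X, with Python 3.11.15, numpy 2.4.6, pandas 2.3.3, scipy 1.17.1 and matplotlib 3.10.9. The matching was tested on simulated data, 3 sets of 20000 sites, with 0 wrong calls. Shares have Wilson 95% intervals, which treat sites as independent and cover counting only. No tests were made, since each group has 1 sample. The members, the comparison classes and the named sites (the 10 strongest by summed FOS and JUN ranks, the 5 strongest with nothing in ethanol and the 5 strongest with JUNB in ethanol) were chosen with earlier results of these data known. Alternatives were matching distances of 150 and 500 bp, exclusion to 1000 bp, −log10 q of at least 5 for FOS and JUN, overlap of whole intervals by at least 1 bp, and, added after seeing the data, no exclusion by STAT3 and NFKB1.

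Some peaks end beyond the GRCh38 length of their chromosome (chromosome 1: last peak end 249200747, length 248956422), the build of the reference at hand, so motif searches, gene names and site sequences were not used here, and coordinates were not converted.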

Additional observations from a re-analysis of the deposited data

How the results depend on the processing

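With −log10 q of at least 5 for FOS and JUN, 5465 sites remained, of which 60.6% had FOS, 32.3% JUN and 21.4% JUNB in non-transformed cells, and the FOS pileup ratio was 0.920. Without the STAT3 and NFKB1 lists, a setting added after seeing the data, there were 23119 sites, with 53.9%, 40.4% and 16.1%, respectively, and a ratio of 0.920. A matching distance of 150 bp gave 27.4% for JUN, 500 bp gave 52.4% for FOS, and overlap of whole intervals gave 16.4% for JUNB. The other values stayed within the interval of the reported one or, for the number of sites, between 9399 (exclusion to 1000 bp) and 11807 (150 bp). At 150 and 500 bp, JUN of non-transformed cells was at 27.4 and 28.98% of FOS-JUN sites and at 7.96 and 8.20% of sites with JUNB only. No paired analysis was possible because there is 1 sample in each group, which also means that no replicate could be left out. The share with a TGANTCA motif was not run for want of hg19 sequence. No alternative varied the depth. The STAT3 and NFKB1 libraries of transformed cells are the shallowest of that state, and how far depth limits the exclusion was not tested.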

Other observations

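Outside chromosomes 1 to 22 and X the FOS list of transformed cells holds 64 peaks, and 3 of them meet the rule for FOS-JUN sites.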
